A study of Rattus norvegicus with 4 samples.

Results

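A-type potassium channels carry a current that opens below spike threshold and shuts off within moments, which delays firing and limits the spread of spikes back into dendrites. The channel is a complex: pore-forming subunits of the Kv4 (Shal) family assemble with cytosolic calcium-binding proteins (KChIPs) and with single-pass membrane proteins of the dipeptidyl peptidase-like family. In the striatum, Kv4 channels carry A-type current in medium spiny neurons (MSN), the GABAergic projection neurons that make up most neurons of the nucleus accumbens. The genes described here are 9 of the 30560 listed in the feature tables, taken by symbol. They are the pore subunit genes Kcnd2 (Kv4.2) and Kcnd3 (Kv4.3), the KChIP genes Kcnip1, Kcnip2, Kcnip3 and Kcnip4, the partner genes Dpp6 and Dpp10, and Kcna4 (Kv1.4), a Shaker-family subunit that forms a fast-inactivating channel without Kv4.

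Nucleus accumbens tissue of rats was used for single-nucleus RNA-seq in 4 libraries, 1 per sex and treatment. Adult Sprague-Dawley rats aged 90 to 120 days received intraperitoneal cocaine at 20 mg/kg, or saline, once a day for 7 days, each injection being followed by tracking in an open field. The dissection, 1 hour after the final injection, was a 2 mm punch centred on the core, and each library pooled 4 rats, 16 in all. The treatment groups therefore hold 2 libraries each, a female and a male pool. A p-value measures the spread between pools, which was borrowed partly or wholly across genes.

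Total UMIs (unique molecular identifiers, counted transcripts) ran from 31484217 to 40737786 per library and median UMIs per nucleus from 4363 to 5066. The 24843 nuclei kept formed 21 clusters, of which 13 were named from marker genes. Among the 26224 nuclei past the first filters, 81 barcodes occurred in more than 1 library. Tests were run in the 14 classes holding 25 or more nuclei per library, 9 named classes and 5 clusters that stayed unnamed and are called by their leading gene. D1-MSN-like nuclei (4900) carried all 6 markers of the D1 list, summing to 802 CPM in the saline female library, where the D2 list summed to 17.7 CPM. A level below is a gene's UMIs per 1000000 UMIs (CPM), summed over all nuclei of a class in a library, so fewer expressing nuclei and less RNA per nucleus cannot be told apart. Levels are compared for 1 gene across classes, never between genes, because transcript lengths were not used.

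All 9 genes were detected, with 6561 UMIs for Kcnip3 at the low end and 818448 for Kcnip4 at the high end. Of 126 pairs of a gene and a class, 105 passed the filter on low counts and 21 did not. Dpp6 passed in 14 of 14 classes and Kcna4 in 8. Counts of 6 of the genes may include reads of neighbours: RefSeq's GRCr8 annotation places other gene models over Kcnd2 (6), Kcnd3 (1), Kcnip1 (5, among them Kcnmb1), Kcnip4 (4), Dpp6 (5) and Dpp10 (5), and none over Kcnip2, Kcnip3 and Kcna4.

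**Figure D1:**
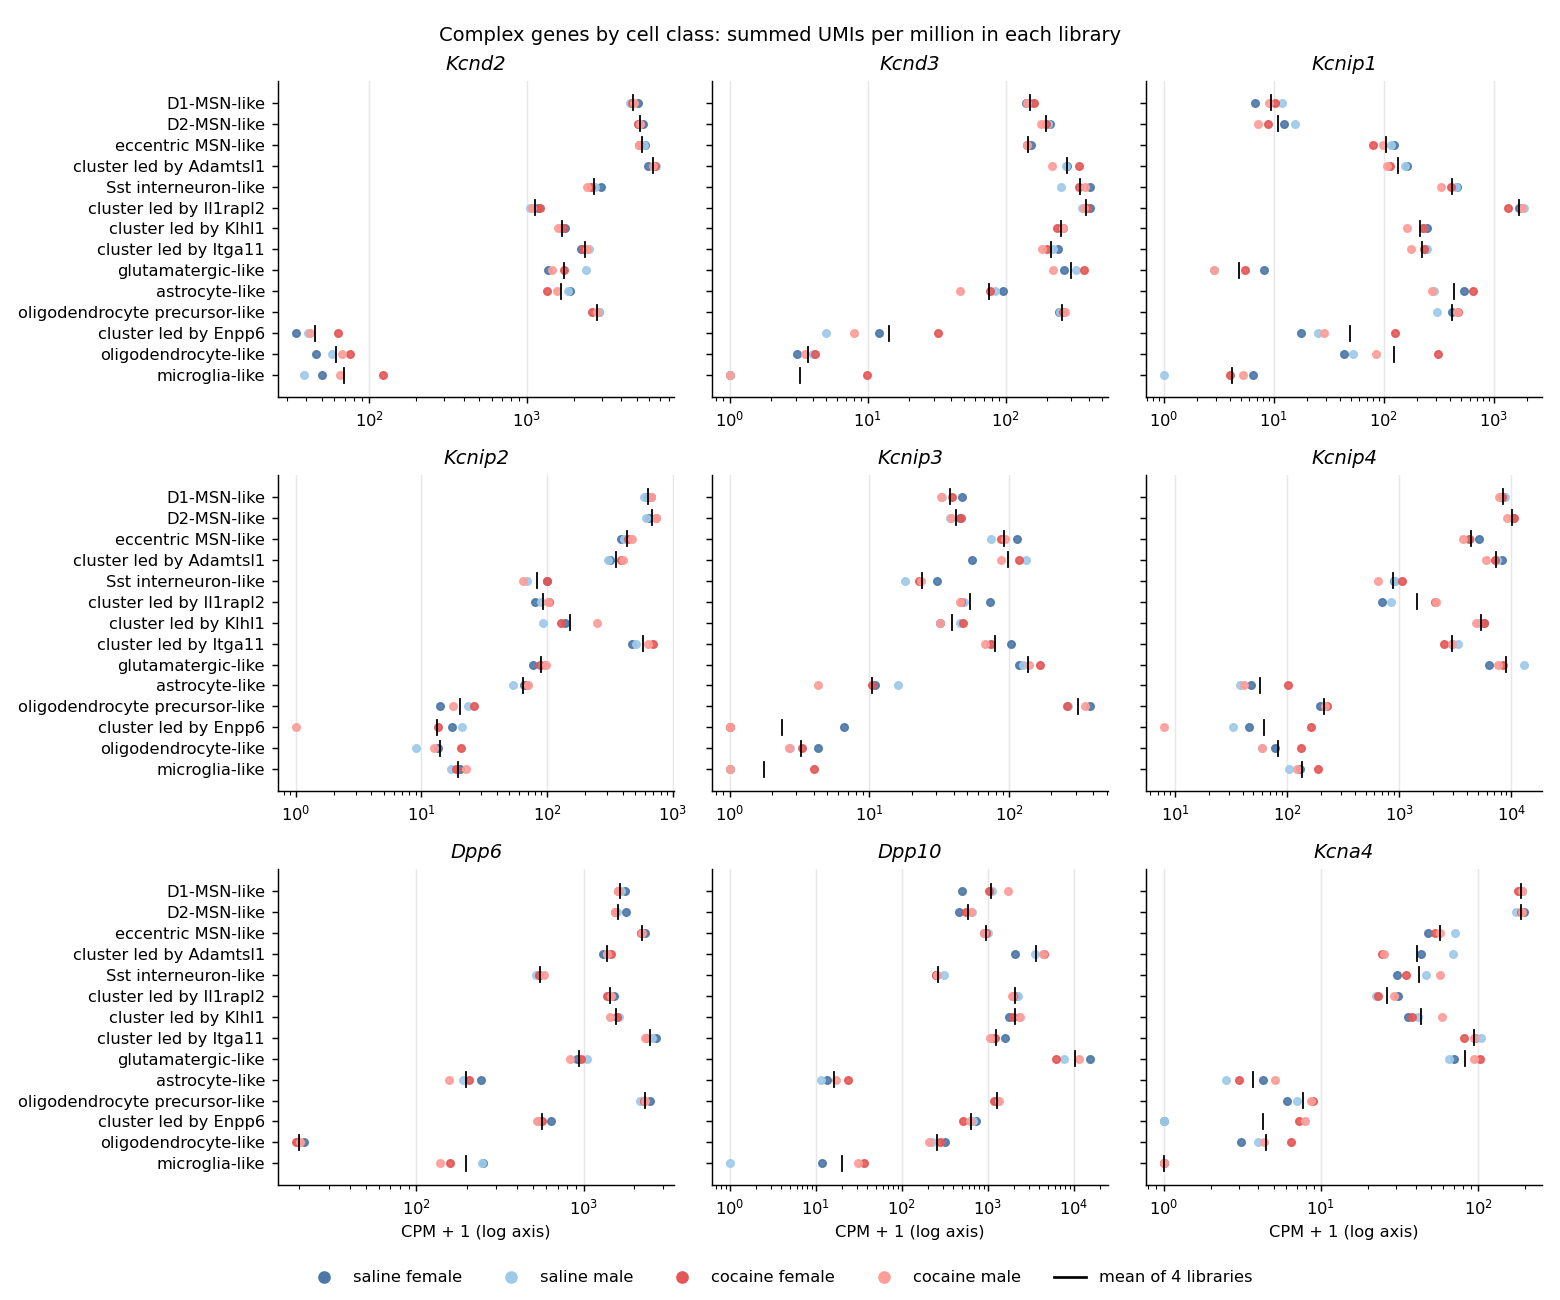
CPM plus 1 of each complex gene on a log axis, by cell class, with 1 point per library and a bar at the mean of 4 libraries. Kcna4 and Kcnip2 sat highest in MSN-like classes, Kcnip3 in oligodendrocyte precursor-like nuclei, Dpp10 in glutamatergic-like nuclei and Kcnip1 in the cluster led by Il1rapl2.

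The 2 pore subunit genes had different class profiles. Kcnd2, which encodes the main somatodendritic Kv4 subunit of many principal neurons, stood at 4771 ± 224 CPM in D1-MSN-like nuclei (SD, n = 4 libraries here and below), 5241 ± 198 in D2-MSN-like nuclei and 5398 ± 262 in eccentric MSN-like nuclei. Its highest mean was 6362 ± 346 CPM, in the unnamed cluster led by Adamtsl1, whose libraries (5892 to 6687) lay above those of all other classes. Sst interneuron-like nuclei had 2671 ± 226 CPM of Kcnd2. Its mean was 68.4 CPM in microglia-like and 60.8 CPM in oligodendrocyte-like nuclei, and 44.4 CPM in the cluster led by Enpp6.

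Kcnd3, the pore subunit gene best known from interneurons, was highest outside the MSN classes. It stood at 381 ± 23.9 CPM in the cluster led by Il1rapl2, in which Kit of the Pvalb/Pthlh interneuron list was the second leading gene, and at 343 ± 66.3 CPM in Sst interneuron-like nuclei. D2-MSN-like nuclei had 195 ± 11.6 CPM, D1-MSN-like 148 ± 9.15 and eccentric MSN-like 145 ± 5.35. The cluster led by Il1rapl2 and the Sst interneuron-like class overlapped over libraries, as did D1-MSN-like and eccentric MSN-like nuclei. For both Kcnd2 and Kcnd3, 9 of the 13 neighbouring pairs in the order of classes overlapped.

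The KChIP genes, whose products bind the Kv4 amino terminus, change its gating and raise its surface level, differed in their class profiles. Kcnip1 was highest in the cluster led by Il1rapl2 at 1680 ± 241 CPM (1340 to 1889), with no overlap with the next class. Astrocyte-like (434 ± 185), oligodendrocyte precursor-like (415 ± 77.0) and Sst interneuron-like nuclei (411 ± 60.1) followed and overlapped. MSN classes were near the bottom for Kcnip1, at 9.99 ± 3.77 CPM for the D2-MSN-like and 8.49 ± 2.16 for the D1-MSN-like class, against 104 ± 19.7 in eccentric MSN-like nuclei. Thus Kcnip1 was low in the main projection neurons and high in Sst interneuron-like nuclei and several glial classes.

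Kcnip2, the KChIP that also pairs with Kv4 in heart muscle, was highest in MSN classes. It stood at 682 ± 63.6 CPM in D2-MSN-like, 640 ± 40.1 among D1-MSN-like, 578 ± 106 in the cluster led by Itga11 and 429 ± 38.7 in eccentric MSN-like nuclei. Sst interneuron-like nuclei had 82.3 CPM and the glial classes 63.5 CPM or less. Neighbours in this order overlapped in 11 of 13 cases, so it is a gradual ranking.

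Kcnip3, also known as the calcium-binding transcriptional repressor DREAM and as calsenilin, was highest in a glial class. Oligodendrocyte precursor-like nuclei held 311 ± 60.8 CPM (256 to 380), with no overlap with glutamatergic-like nuclei at 136 ± 21.3 CPM. D2-MSN-like nuclei had 40.4 CPM and D1-MSN-like nuclei 36.7 CPM of Kcnip3. Kcnip4 was highest in D2-MSN-like nuclei (10067 ± 686 CPM), glutamatergic-like nuclei (8854 ± 2940) and D1-MSN-like nuclei (8364 ± 466). The glutamatergic-like libraries ran from 6321 to 13057 CPM, so they overlapped both MSN classes, and that class held from 30 to 253 nuclei per library. Eccentric MSN-like nuclei had 4336 ± 611 CPM of Kcnip4 and Sst interneuron-like nuclei 878 CPM.

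The peptidase-like proteins, which speed Kv4 opening and recovery and have no peptidase activity, also differed in profile. Dpp6 was spread over all neuron classes, with 2491 ± 185 CPM in the cluster led by Itga11, 2243 ± 58.6 in eccentric MSN-like, 1661 ± 82.9 in the D1-MSN-like and 1611 ± 116 in the D2-MSN-like class, with 547 in Sst interneuron-like nuclei. Oligodendrocyte precursor-like nuclei reached 2319 ± 122 CPM of Dpp6, against 19.0 CPM in oligodendrocyte-like nuclei. Dpp10 was highest in glutamatergic-like nuclei at 10265 ± 4230 CPM (6250 to 15669, above every other class). It was 3640 ± 1126 CPM in the cluster led by Adamtsl1, 1095 ± 499 in D1-MSN-like, 948 ± 45.4 in eccentric MSN-like and 583 ± 89.7 in the D2-MSN-like class. The D1-MSN-like libraries spread from 500 to 1718 CPM, which is taken up below.

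Kcna4, whose product inactivates through its own amino-terminal ball and is found largely in axons, had its highest levels in the 2 main MSN classes. D1-MSN-like nuclei had 187 ± 5.91 CPM and the D2-MSN-like class 186 ± 10.3 CPM, which overlapped each other and no other class. The cluster led by Itga11 followed at 93.1 CPM and eccentric MSN-like nuclei at 56.3 CPM. No UMI of Kcna4 was seen in microglia-like nuclei, which over the 4 libraries allows a level of up to 2.68 CPM.

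The named class with the highest level was the same for 7 of 9 genes when nuclei were instead gated one by one on marker UMIs. Kcnd2 then led in D1-MSN-like and Kcnip4 in glutamatergic-like nuclei. With the mean of nucleus-wise CPM in place of summed UMIs it was the same for 8 of 9, Kcna4 leading in D2-MSN-like nuclei.

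Glial levels were read against free RNA, which in droplet data puts neuronal UMIs into every nucleus. As a yardstick, 7 MSN markers were expressed in glial classes as a percentage of their MSN level, with medians of 9.84% in astrocyte-like, 11.8% in oligodendrocyte-like, 11.4% in oligodendrocyte precursor-like and 2.34% in microglia-like nuclei. The markers did not share 1 ratio, and in astrocyte-like nuclei they ran from 1.48% (Rgs9) to 46.4% (Ppp1r1b). A level inside the marker range was therefore read neither as free RNA nor as RNA of the class. In oligodendrocyte precursor-like nuclei, 6 of 9 complex genes stood above all 7 of these markers, whose highest was 28.2%. These were Kcnip1 (4850% of the MSN level), Kcnip3 (822%), Dpp10 (163%), Kcnd3 (152%), Dpp6 (141%) and Kcnd2 (56.7%). Kcnip2 (2.96%), Kcnip4 (2.36%) and Kcna4 (3.57%) were below the marker median there.

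In astrocyte-like nuclei only Kcnip1 (4996%) stood above the highest marker, 46.4%. Kcnd3 at 44.3% and Kcnd2 at 33.5% were above the marker median but inside the marker range, while Kcnip4 (0.618%), Kcna4 (1.45%), Dpp10 (1.91%) and Kcnip2 (9.64%) were at or under the median. Kcnip2 did not hold that place by library. In the saline libraries (female, male) it stood at 10.1% and 8.74%, above the median marker, Adcy5 at 4.56% and 4.28%. In the cocaine libraries it was under the median marker. Oligodendrocyte-like nuclei held Kcnip1 at 1418% and Dpp10 at 34.4% of the MSN level, the latter inside the marker range, which ended at 36.9%. In microglia-like nuclei Kcnip1 was at 40.0% of a very low MSN level (3.19 CPM), and 6 of 9 genes were at or under the marker median.

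D1- and D2-type MSN were compared on nuclei gated by D1 or D2 marker UMIs, which use none of the complex genes (1204 and 1879 nuclei). edgeR's quasi-likelihood test with library as a block and Benjamini-Hochberg adjustment called 9.8% of 11221 genes and 4 of the 9. Kcnd3 was lower in D1-gated nuclei, at 93.2, 92.3, 98.6 and 108 CPM against 171, 183, 179 and 160 CPM in D2-gated nuclei (both female libraries, then both males, saline before cocaine in each pair, the order used throughout). The gates did not overlap for Kcnd3, and the log2 difference was -0.81 (SE 0.07, edgeR adjusted p = 3.7e-08). Of the D1-gated nuclei 76.1% came from cluster 2 and 21.2% from cluster 6, which held 1766 of the 4900 D1-MSN-like nuclei. Kcnd3 averaged 94.0 CPM in cluster 2 and 245 CPM in cluster 6, the latter above the 195 CPM of the D2-MSN-like class. The gated difference therefore describes mainly cluster 2 nuclei.

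Kcnip4 was also lower in D1-gated nuclei, at 6547, 5550, 6661 and 5532 CPM against 7944, 7728, 7921 and 6785 CPM (log2 difference -0.32, SE 0.03, edgeR adjusted p = 4.9e-07). D1-gated nuclei averaged 6072 CPM of it, against 9639 CPM in cluster 2 and 6128 CPM in cluster 6. D2-gated nuclei averaged 7595 CPM, against 10067 CPM in the D2-MSN-like class. For this gene the gated nuclei were therefore not average nuclei of cluster 2 or of the D2-MSN-like class. Kcnip1 stood at 5.71, 9.76, 15.4 and 8.93 CPM against 28.7, 18.7, 35.6 and 15.6 CPM, from 16 to 41 UMIs in D1-gated and 66 to 143 in D2-gated nuclei. Its log2 difference was -1.32 (SE 0.19, edgeR adjusted p = 4.1e-05), with the lower value on the D1 side in 4 of 4 libraries. Of the 1879 D2-gated nuclei 135 came from the cluster led by Itga11, where Kcnip1 averaged 223 CPM. The classes from clusters were near each other, at 9.99 CPM for D2-MSN-like and 8.49 CPM for D1-MSN-like nuclei. The part of those 135 nuclei in the gated difference was not tested. Kcna4 was higher in D1-gated nuclei, at 226, 218, 243 and 215 CPM against 201, 178, 172 and 187 CPM (0.29, SE 0.06, edgeR adjusted p = 0.00199). None of these 3 genes overlapped between gates, although Kcnip1 came close, at 15.4 against 15.6 CPM. For them and for Kcnd3, the share of all genes without overlap between gates is not given, so nothing is read from it.

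For the remaining genes the log2 differences were 0.06 (Kcnd2), -0.02 (Kcnip2), -0.20 (Kcnip3), 0.03 (Dpp6) and -0.16 (Dpp10, edgeR adjusted p = 0.112), none past the threshold. Taking D1- and D2-MSN-like classes from clusters instead turned the sign for Kcnd2 (-0.16), Dpp10 (0.78) and Kcna4 (-0.02), so those directions depend on which nuclei are counted. There the turned Kcnd2 and Dpp10 differences passed the threshold (edgeR adjusted p = 1.1e-05 and 1.6e-05), Kcnip2 gained a call (-0.11, edgeR adjusted p = 0.00722), and Kcna4 and Kcnip1 (-0.24) lost theirs. Kcnd3 (-0.42) and Kcnip4 (-0.29) kept theirs.

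Cocaine was compared with saline in each class with sex in the model. Across the 105 tests, 7 passed the threshold, 4 higher and 3 lower with cocaine, which is 6.67% beside 0.399% of the 124505 tests of all genes pooled over classes. The classes share the same 4 libraries, so these 105 tests are not independent. The members were also chosen with earlier results of these data known, so no excess over all genes is read from these shares. The median log2 change over the 105 was -0.08, and 39 were above 0. At an unadjusted p below 0.05 there were 35. The calls lay in 5 of the 14 classes. In the other classes, where no member was called, edgeR called 0.433% of genes (cluster led by Adamtsl1), 0.404% (Itga11), 0.113% (eccentric MSN-like), 0.0329% (Klhl1), 0.145% (microglia-like), 0.0236% (oligodendrocyte precursor-like) and 0.0% (glutamatergic-like, Sst interneuron-like and the cluster led by Enpp6).

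**Figure D2:**
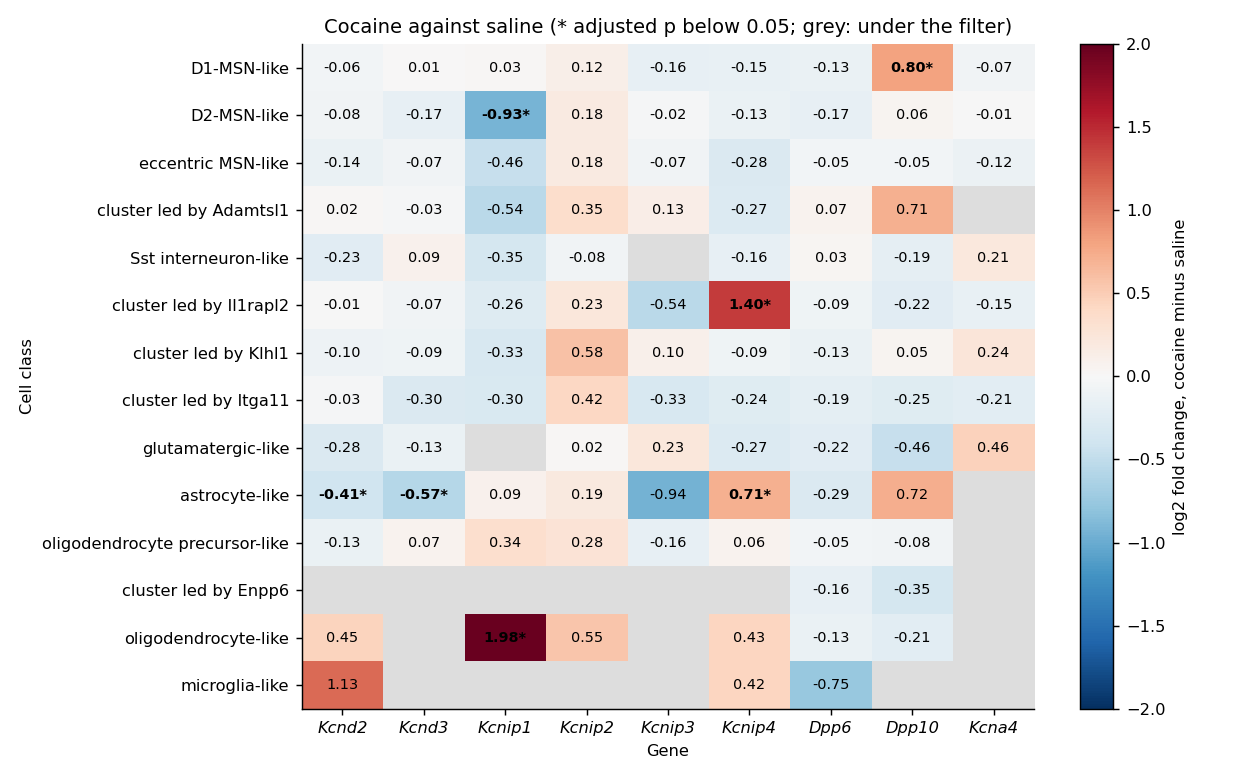
Log2 fold change, cocaine minus saline, of each complex gene (columns) in each class (rows), with an asterisk where the edgeR adjusted p is below 0.05 and grey where the gene was under the filter. The 7 marked cells are spread over 5 classes and 5 genes, and Kcnip2 is above 0 in 11 of its 12 classes.

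Dpp10 in D1-MSN-like nuclei stood at 500, 1034, 1129 and 1718 CPM. The saline mean was 814 ± 444 CPM and the cocaine mean 1376 ± 484 CPM (n = 2 each). Cocaine was higher within each sex, with log2 ratios of 1.05 in females and 0.61 in males, but the groups overlapped, since the saline male library lay above the cocaine female. The fitted change was 0.80 on the log2 scale, 1.74-fold (SE 0.10, edgeR adjusted p = 0.0209), in a class where 0.189% of 13261 genes were called. The effect exceeded that in D2-MSN-like nuclei by 0.73 (SE 0.13, edgeR adjusted p = 0.0107, a test that called 0.0627% of 12755 genes). With sex left out of the model the change was 0.73 (edgeR adjusted p = 0.970). The call held without the saline male library (1.42) and was lost without the saline female (0.26), the cocaine female (1.03) or cocaine male (0.34).

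The mix of subtypes was uneven for this gene. D1-MSN-like nuclei came from cluster 2, with Ebf1 and Reln among its leading genes, and cluster 6, led by Htr4, a serotonin receptor gene. Cluster 6 gave 210, 535, 592 and 429 of the class's 829, 1370, 1353 and 1348 nuclei. Sub-clustering the class, with the complex genes kept out of the variable genes, set apart sub-cluster 4, a group of 186 nuclei (3.80% of the class) from cluster 6, led by Adamtsl1, Tmem163, Ctbp2, Kcnj6 and Sipa1l2. It held 0, 68, 52 and 66 nuclei, or 0%, 4.96%, 3.84% and 4.90% of each library's D1-MSN-like nuclei. The 0 of 829 in the saline female library allows a share of up to 0.362%.

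Those nuclei carried a large part of the class's Dpp10. Their level was 9011, 12615 and 24862 CPM in the cocaine female library and the 2 male libraries (saline, then cocaine). They gave 4719 of 11789, 4205 of 12055 and 11413 of 16832 Dpp10 UMIs of the class, which is 40.0%, 34.9% and 67.8%. Over all libraries 20337 UMIs, 45.2%, came from 3.80% of the nuclei.

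Dpp10 was high across sub-cluster 4 and not in a few nuclei alone. Median UMIs of Dpp10 per nucleus were 32 (quartiles 9 and 65.3), 44.5 (24 and 121) and 124 (44.5 and 234) in the same libraries, and the highest nuclei held 816, 462 and 746. In the other D1-MSN-like nuclei the medians were 3, 3, 4 and 3 and the highest nuclei 65, 92, 109 and 61. Median total UMIs per nucleus were 7230, 5950.5 and 6234 in sub-cluster 4 against 7867.5, 7400 and 6704 in the rest of those libraries.

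Sub-cluster 4 had Htr4 at 951 CPM, above the 624 CPM of sub-cluster 0. The MSN marker list summed to 5862, 6261 and 5688 CPM in it, and the D1 list to 477, 663 and 560 CPM against 796 to 956 in the rest of the class. The eccentric MSN list summed to 674, 636 and 669 CPM against 173 to 259 in the rest, and the glutamatergic list to 1.91, 0 and 0 CPM. Sub-cluster 4 therefore held less of the D1 list and more of the eccentric list than the rest of the class, and no further name is given to it. The eccentric list includes Grm8, which was also among the leading genes of sub-cluster 0.

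**Figure D3:**
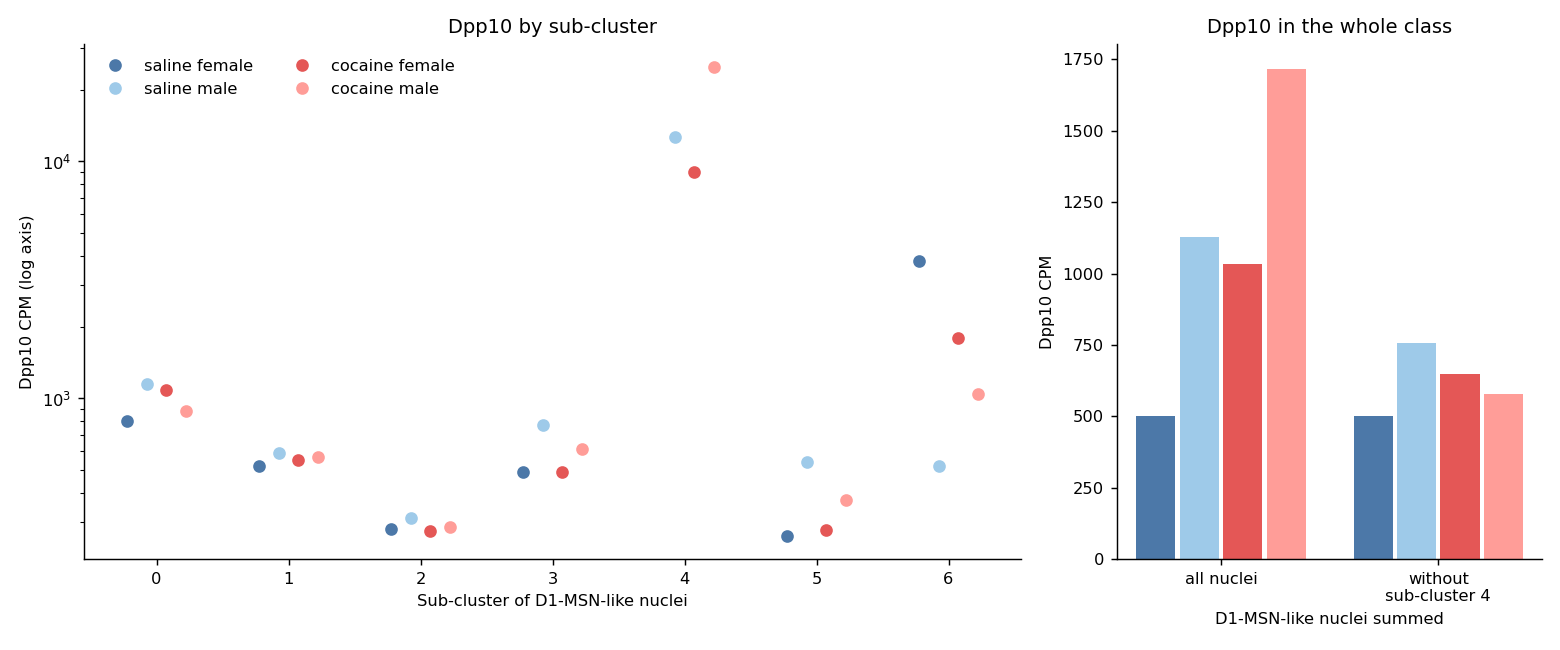
Left, Dpp10 CPM on a log axis in each sub-cluster of D1-MSN-like nuclei, 1 point per library; sub-cluster 4 has no saline female nuclei. Right, Dpp10 CPM of the whole class per library with all nuclei and without sub-cluster 4: the values run from 500 to 1718 CPM with it and from 500 to 759 CPM without it.

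Without sub-cluster 4, Dpp10 in D1-MSN-like nuclei was 500, 650, 759 and 580 CPM, and the change was -0.03 (SE 0.12, edgeR adjusted p = 0.97, with 0.523% of 13191 genes called). In cluster 2 alone, levels were 386, 427, 466 and 429 CPM and the change -0.02 (edgeR adjusted p = 0.96; 2.09% of genes called). In cluster 6 alone Dpp10 was at 850, 1922, 1946 and 4196 CPM, a change of 1.14 (edgeR adjusted p = 2.0e-09; 0.582% of genes called). The difference between cluster 6 and cluster 2 was 1.15 (SE 0.26, edgeR adjusted p = 0.132; 0.0987% of 12160 genes called). Within cluster 6 the call was kept without the saline male library (1.85) and lost without the saline female (0.64), the cocaine female (1.57) or cocaine male (0.45).

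Of the 4 sub-clusters holding 50 or more nuclei per library, edgeR called a Dpp10 change in 0, and 1 had an unadjusted p below 0.05. DESeq2 was not run there. They gave log2 changes of 0.03, -0.04, -0.11 and -0.23, where 0.27%, 0.429%, 0.194% and 0.472% of genes were called, and sub-cluster 4 could not be tested because 1 library had none of it. At resolution 0.2, edgeR called 0 of 3 and 2 had an unadjusted p below 0.05, with changes of -0.05, 0.40 (edgeR adjusted p = 0.149) and -0.28 (edgeR adjusted p = 0.190), where 0.959%, 0.492% and 3.14% of genes were called. With sub-cluster 4 left out and each of the other 6 given the same weight in every library, the log2 ratio of the means was -0.06 (581, 635, 702 and 594 CPM). Drawing the same number of nuclei from every library within each sub-cluster gave a change of -0.14 (edgeR adjusted p = 0.659). That draw took 0 nuclei from sub-cluster 4, so both settings leave it out by construction. In D1-gated nuclei the change was 0.20 (355, 512, 749 and 696 CPM, edgeR adjusted p = 0.552).

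Outside sub-cluster 4, Dpp10 also differed between sub-clusters. Sub-cluster 0, with Htr4 and Grm8 among its leading genes, stood at 803, 1082, 1151 and 887 CPM. Sub-cluster 1 had 520, 547, 590 and 565 CPM and sub-cluster 2 had 281, 276, 311 and 285 CPM, both without overlap with sub-cluster 0. Within sub-cluster 4, the 2 cocaine libraries stood on either side of the saline male library, and with 1 saline library there the treatment could not be tested.

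Dpp10 in D2-MSN-like nuclei did not pass the threshold (0.06), nor did it in any other class. The largest of those values were 0.72 in astrocyte-like nuclei, where Dpp10 averaged 15.5 CPM, and 0.71 in the cluster led by Adamtsl1, a gene that also led sub-cluster 4.

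Kcnip1 was called in 2 classes, with opposite signs. In D2-MSN-like nuclei it fell by 0.93 on the log2 scale (SE 0.21, edgeR adjusted p = 0.00405; 0.798% of 12536 genes called), from 11.4 and 14.6 CPM in the saline to 7.77 and 6.19 CPM in the cocaine libraries (female, then male). The groups did not overlap, as for 10.6% of tested genes of this class with lower values. The sums rest on 78, 57, 93 and 43 UMIs. The call was lost without the sex term (-0.94) and without the cocaine female (-1.12), saline male (-0.75) or cocaine male library (-0.77). Thinned to 1000 UMIs per nucleus, 1.17%, 0.741%, 1.42% and 0.595% of D2-MSN-like nuclei held a Kcnip1 UMI, against 0.525%, 0.333%, 0% and 0.722% of microglia-like nuclei (0 of 151 nuclei before thinning in the saline male library, which allows up to 1.99%). These microglia-like shares rest on 0 to 2 nuclei with a UMI, and no order is read from them. Unthinned shares were 7.06%, 3.57%, 6.06% and 3.10% at median depths of 9698.5, 7416.5, 6954.5 and 6379 UMIs, and 0.995%, 0.429%, 0% and 0.535% in microglia-like nuclei at 1747, 1352, 1166 and 1151 UMIs.

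Within D2-MSN-like nuclei Kcnip1 was concentrated in sub-cluster 2 (73, 90, 154 and 146 nuclei), led by Npas3, Pcdh15 and Cpne4. D2-MSN-like sub 2 stood at 76.6, 58.5, 71.7 and 25.004 CPM of Kcnip1, from 51, 38, 78 and 25 UMIs, and the other 6 sub-clusters averaged 8.66 CPM or less. Both saline libraries lay above both cocaine libraries in it, and the change was -0.98 (SE 0.24, edgeR adjusted p = 0.0228; 0.381% of genes called). Sub-cluster 0, the other one in which Kcnip1 passed the filter, gave -0.19 (edgeR adjusted p = 0.959; 0.243% called). At the coarser sub-cluster resolution of 0.2, the sub-cluster led by Npas3 gave -1.15 without a call (edgeR adjusted p = 0.608; 0.0% called), while an equal mix of sub-clusters left the class value at -0.94.

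In oligodendrocyte-like nuclei, the myelinating glia, Kcnip1 rose by 1.98 (SE 0.29, edgeR adjusted p = 0.00723; 0.159% of 10724 genes called). The libraries held 42.6, 310, 51.0 and 83.6 CPM, from 183, 1084, 119 and 201 UMIs. Both cocaine libraries were above both saline libraries, as for 22.4% of tested genes of this class. The cocaine female library stood far above the rest, and the log2 ratio was 2.86 in females and 0.71 in males. The call was lost without the sex term (2.05) and without the cocaine female (0.78) or saline male library (2.16).

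The share of oligodendrocyte-like nuclei with a Kcnip1 UMI showed the same 1 high library. It was 5.79%, 30.2%, 6.46% and 9.09% (exact Clopper-Pearson 95% intervals 4.80 to 6.91, 28.1 to 32.3, 5.18 to 7.93 and 7.66 to 10.7, counting error only). Median depths were 2000, 1692.5, 1620 and 1511 UMIs. Thinned to 1000 UMIs, leaving out 26, 74, 79 and 141 shallower nuclei, the shares were 3.32%, 21.0%, 3.87% and 6.50%. Both clusters of the class had it: 56.1, 443, 74.6 and 124 CPM in cluster 0 (2.08, edgeR adjusted p = 0.355; 0.0103% called) and 18.3, 120, 17.6 and 27.9 CPM in cluster 3 (2.09, edgeR adjusted p = 7.6e-14; 0.735% called). Without the cocaine female library the changes were 0.87 and 0.56, neither of them called. Without any other library they ran from 1.91 to 2.74 in cluster 0 and from 2.02 to 2.69 in cluster 3. Which cluster was called changed with the library left out, so no difference between the clusters is read from their adjusted p.

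Kcnip1 in neighbouring glial classes also varied by library. The small cluster led by Enpp6, a gene of newly formed oligodendrocytes, had 16.6, 125, 24.0 and 27.6 CPM from 3 to 20 UMIs and was under the filter. Astrocyte-like nuclei held 532, 646, 287 and 272 CPM, in which the sexes and not the treatments were apart. In the oligodendrocyte-like class the MSN marker list summed to 805, 759, 782 and 783 CPM and the astrocyte list to 222, 205, 223 and 235 CPM, so neither list was high in the cocaine female library.

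**Figure D4:**
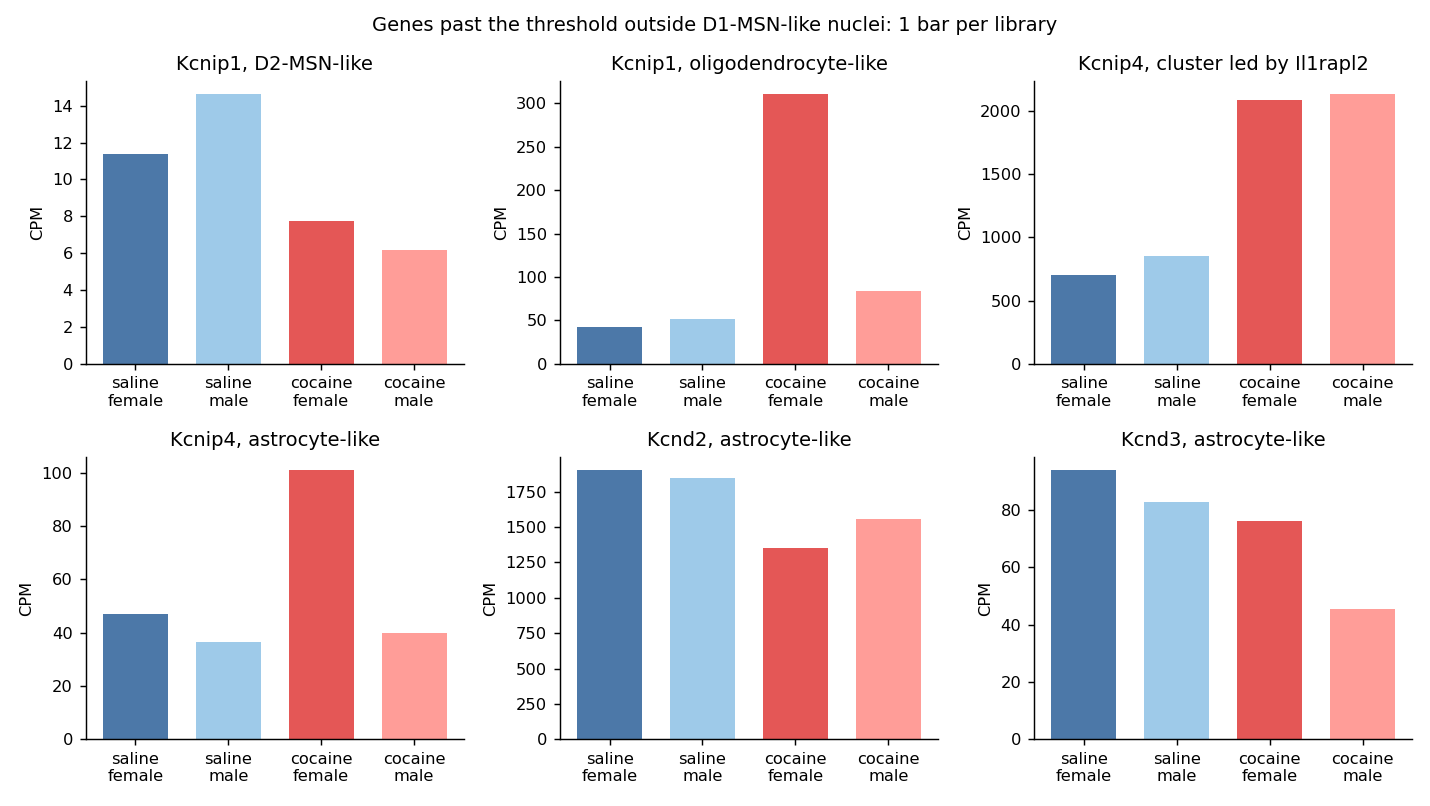
CPM in each library (1 bar per library, axes from 0) for the 6 calls outside D1-MSN-like nuclei. The groups overlap for Kcnip4 in astrocyte-like nuclei, and a single cocaine female bar stands out for Kcnip1 in oligodendrocyte-like and Kcnip4 in astrocyte-like nuclei.

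Kcnip4 passed the threshold in 2 classes. In the cluster led by Il1rapl2 it stood at 706, 2087, 849 and 2131 CPM, a change of 1.40 (SE 0.10, edgeR adjusted p = 1.4e-08; 1.44% of 9274 genes called). The groups did not overlap, as for 23.5% of tested genes of this cluster with higher values. This cluster held 81 nuclei led by Vip, a neuropeptide gene of some interneurons, at 8, 49, 4 and 20 per library of 124, 149, 128 and 107. The Vip-led nuclei had Kcnip4 at 1583, 3804, 2807 and 6099 CPM. Without them the cluster stood at 635, 938, 783 and 799 CPM, a change of 0.25 (SE 0.12, edgeR adjusted p = 0.693; 0.0% of 8448 genes called). In the whole cluster the Sst list summed to 11.5, 136, 16.4 and 118 CPM and the Pvalb/Pthlh list to 415, 261, 430 and 300 CPM, so both marker lists moved with the treatment groups.

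In astrocyte-like nuclei 3 of the 8 members tested were called, in a class where 1.37% of 10349 genes were. Kcnd2 fell by 0.41 (SE 0.10, edgeR adjusted p = 0.00409), from 1901 and 1842 CPM in the saline to 1353 and 1556 CPM in the cocaine libraries. Kcnd3 fell by 0.57 (SE 0.16, edgeR adjusted p = 0.0404), from 93.9 and 83.0 to 76.2 and 45.6 CPM, on 142, 111, 114 and 56 UMIs. Neither overlapped between groups, as for 13.9% of tested genes of this class with lower values. Kcnip4 had an adjusted p of 0.0220 by edgeR (0.71, SE 0.19) at 47.0, 101, 36.6 and 39.9 CPM. Its cocaine male library lay below the saline female, and 1 nucleus gave 25 of the 151 UMIs of the cocaine female library (16.6%). Without the cocaine female library the Kcnip4 value was -0.11, and the call held only without the cocaine male library (1.23). With the sex term left out, or any 1 library left out, neither Kcnd2 (-0.50 to -0.31 over libraries) nor Kcnd3 (-0.25 without the cocaine male library) passed. Over all 11 alternatives, Kcnd2 kept its call in 3 (no TMM, no filter, resolution 1.0) and Kcnd3 in 1 (resolution 1.0).

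The MSN marker list in astrocyte-like nuclei summed to 684, 997, 541 and 869 CPM, with all 7 markers present and the cocaine libraries above the saline libraries. Its part in the astrocyte results was not tested.

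Kcnip2 had 0 calls by edgeR or DESeq2 in 12 classes, with 4 at an unadjusted edgeR p below 0.05, yet its values ran one way. The fitted change was above 0 in 11 of 12 classes (median 0.21, range -0.08 to 0.58), and in 7 of 12 both cocaine libraries stood above both saline libraries, with 0 classes the other way. Over all genes pooled, 21.5% of 124505 tests had that order upward and 13.3% downward. In D1-MSN-like nuclei the values were 625, 674, 591 and 671 CPM, in D2-MSN-like 642, 730, 613 and 741 CPM and in eccentric MSN-like 388, 442, 409 and 476 CPM. The cluster led by Itga11 had the lowest edgeR adjusted p, 0.0632, at 471, 697, 508 and 637 CPM (0.42, SE 0.12). Sst interneuron-like nuclei had the 1 value below 0. The classes share their libraries, so the 12 values are not 12 independent comparisons.

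**Figure D5:**
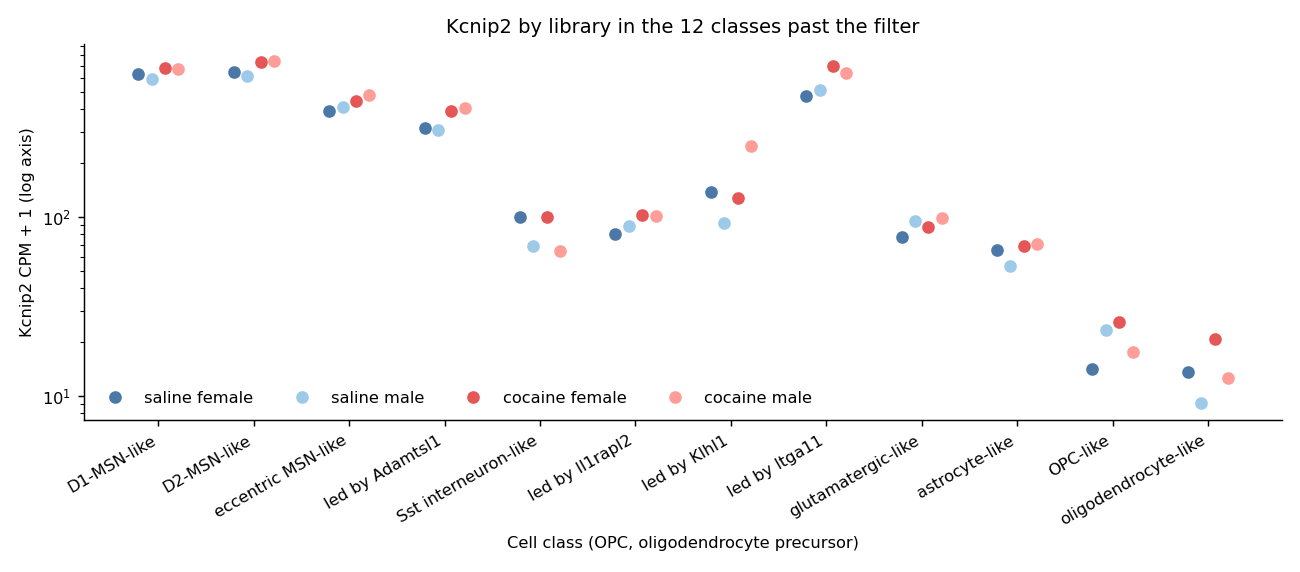
Kcnip2 CPM plus 1 on a log axis in the 12 classes past the filter, 1 point per library. Both cocaine points lie above both saline points in 7 classes, and the groups overlap in the other classes.

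For the other genes the direction was mixed or downward. Dpp6 was above 0 in 2 of 14 classes (median -0.13) and Kcnip4 in 5 of 13 (median -0.13), with non-overlapping lower values in 5 and 4 classes and non-overlapping higher values in 1 each, beside the pooled 13.3% lower and 21.5% higher of all tests. Kcnd2 was above 0 in 3 of 13, Kcnd3 in 3 of 11, Kcnip3 in 3 of 10 and Kcna4 in 3 of 8. Kcnip1 had non-overlapping lower values in 6 of 11 classes and higher values in 2, beside the same pooled shares, and a median of -0.30. Dpp6, Kcnip3 and Kcna4 had 0 calls by edgeR or DESeq2, with 4, 2 and 0 tests at an unadjusted edgeR p below 0.05.

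The same fits gave the difference between sexes, each from 2 libraries a side. Of 105 tests, 7 passed, 5 of them higher in females, beside 0.76% of all 124505 tests. Kcnip1 in astrocyte-like nuclei was 1.05 higher on the log2 scale in females (edgeR adjusted p = 2.2e-18; 1.55% of genes called), with both female libraries above both males. Kcnip1 (1.11), Kcnip4 (0.82) and Dpp10 (0.49) were higher in females in oligodendrocyte-like nuclei, with edgeR adjusted p of 0.0465, 0.00599 and 0.00333 and 2.87% of genes called. The sexes did not overlap there for Kcnip4 and Dpp10. For Kcnip1 they overlapped, since the saline female library was the lowest of the 4 and the cocaine female library the highest. The share of all genes whose sexes do not overlap is not given, so nothing is read from such an order, in astrocyte-like nuclei either. Kcnip4 was also higher in astrocyte-like nuclei (0.90, edgeR adjusted p = 0.000814).

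Dpp10 was lower in females in both main MSN classes. In D2-MSN-like nuclei the means were 513 and 654 CPM (-0.35, edgeR adjusted p = 0.000267; 2.44% of genes called). In D1-MSN-like nuclei they were 767 and 1423 CPM (-0.93, edgeR adjusted p = 0.00402; 0.098% of genes called), and the saline female library is the one without sub-cluster 4. When the treatment term was left out of the fit, 1 of the 7 sex calls remained past the threshold, Kcnip1 in astrocyte-like nuclei (1.06, edgeR adjusted p = 0.00246).

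Other genes of fast-inactivating potassium channels and of their anchors gave a single call. The list held 14 genes, 13 of them tested, among them the Shaker subunits Kcna1, Kcna2 and Kcna6, the beta subunits Kcnab1, Kcnab2 and Kcnab3, Kcnc4, the calcium sensor Ncs1, the scaffold genes Dlg1, Dlg4 and Akap5, and the kinase gene Camk2a. Kcnd1 was not used here. Of 125 tests 63 were above 0, the median was 0.00 and 1 passed, beside 0.399% of all tests. It was Kcna1 in astrocyte-like nuclei, which fell by 0.69 (SE 0.18, edgeR adjusted p = 0.0142), from a mean of 74.2 CPM with saline to 46.9 CPM with cocaine. It passed in none of the fits that left out 1 library (-1.31 to -0.28) or the sex term (-0.68).

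The genes with the most similar profile were found by Pearson's r of log2(CPM + 1) over the 11 named classes (the 9 tested, cholinergic-like and vascular-like), among 11750 genes, as a description across classes that share their libraries. Kcnd2 was closest to Nebl (0.988) and Ntrk3 (0.983), and Kcnd3 to Slc38a1 (0.969) and Nova2 (0.968). Among the KChIPs, Kcnip1 was close to Cad (0.938), Kcnip2 was closest to Kif27 (0.953) and Ngef (0.949), Kcnip3 to Acap3 (0.957) and Prkg2 (0.952), and Kcnip4 to Lin7b (0.978) and Acd (0.975). Dpp6 was closest to Prr36 (0.957) and Dhodh (0.948), Dpp10 to Kcnh7 (0.920) and Unc5a (0.907), and Kcna4 to Epb41l1 (0.973) and Wdr17 (0.968).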

How the data were processed

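Nuclei were sorted on 7-AAD and about 12500 per library were loaded on 10x Genomics 3′ v3 chemistry, per the labels' protocols. The authors deposited UMI counts per gene and nucleus, whole numbers and not normalized, made with Cell Ranger 6.1.2 per the file headers. The rat build rn7 is named in the submitters' processing notes. No source used here gives the counting settings. Each matrix held its own library, and 0 columns of other samples were found.

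Nuclei needed 200 genes and no more than 5% mitochondrial UMIs. Scrublet (scanpy 1.11.5) scores removed 4.97% to 5.81% of nuclei per library as doublets. Clustering used 2000 variable genes without the 9 complex genes, 30 principal components, 15 neighbours and Leiden (leidenalg 0.10.2) at resolution 0.5, with D1-MSN-like sub-clusters at 0.4. Clusters were named from fixed marker lists. Cluster levels of a gene are descriptions and were not tested between clusters.

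UMIs were summed per library and class and tested with edgeR 4.0.16 (R 4.3.3; quasi-likelihood, TMM, filterByExpr, sex as covariate), with Benjamini-Hochberg adjustment over all genes of the class at 0.05. Only 1 residual degree of freedom remains per gene before moderation by edgeR, and in astrocyte-like nuclei the prior degrees of freedom were infinite. Sex is the only label a saline and a cocaine library share. Deviations of same-sex libraries from treatment means correlated at -0.12 to 0.55 over classes (2 pairs), so sex is a covariate and not a pairing of animals. CPM were not TMM-scaled. Fits that leave out a library omit sex and assume that a lone library varies like the others. DESeq2 1.42.0, other scaling, no low-count filter, no doublet removal, resolution 1.0 and a per-nucleus marker gate were alternatives. The 9 genes are all named, with pathway genes past the threshold and the 2 genes most alike in profile, apart from items that are not reported here. The members and lists were chosen with earlier results of these data known. Intervals and limits from counts cover counting error only. The scripts were tested on simulated counts. No sequences are printed.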

Additional observations from a re-analysis of the deposited data

Results flagged for a closer look

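In 11 of the 126 levels (8.73%) of a complex gene in a class, 1 library of the 4 stood apart from the other 3 by Dixon's criterion. Chance alone gives about 1 in 20 for independent values, but these levels share their 4 libraries and hold both treatments. The cocaine female library was the high one for Kcnip1 in oligodendrocyte-like nuclei (310 CPM, next 83.6) and in the cluster led by Enpp6 (125, next 27.6), and for Kcnip4 in astrocyte-like nuclei (101, next 47.0). Kcnip4 in D2-MSN-like nuclei was lowest at 9052 CPM (next 10307) and Kcna4 in D1-MSN-like nuclei at 178 CPM (next 189). Kcnd3 in eccentric MSN-like nuclei reached 153 CPM (next 143), Dpp10 in Sst interneuron-like nuclei 308 (next 254) and Kcnip3 in the cluster led by Il1rapl2 72.1 (next 46.8). Single libraries held the only UMIs of Kcnd3 (8.94 CPM) and Kcnip3 (2.98 CPM) in microglia-like nuclei and of Kcnip3 in the cluster led by Enpp6 (5.54 CPM). With the other 3 libraries at 0, such levels meet the criterion at any count.

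The cocaine effect on Dpp10 differed between D1- and D2-MSN-like nuclei by 0.73 on the log2 scale by a test of the difference (edgeR adjusted p = 0.0107). The same difference in gated nuclei was 0.12 (edgeR adjusted p = 0.944). Sub-cluster 4, with Dpp10 at 9011 to 24862 CPM, was present in 3 of the 4 libraries on the D1 side.

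Among classes too small to test, cholinergic-like nuclei had 7 of the 9 genes at more than 3 UMIs in every library, and the cluster led by Smoc2, which has genes of motile cilia among its leading genes, had 4.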

How the results depend on the processing

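The 7 calls of complex genes depended on the model. The number was 1 without the replicate block (the sex term), 2 with DESeq2, 4 without doublet removal and 1 to 8 when 1 library was left out; with equal sub-cluster mixes 1 of the 2 calls in D1- and D2-MSN-like nuclei remained. It was 5 without TMM, 8 without the filter on low counts and 6 at Leiden resolution 1.0. With the nucleus gate it was 4 in 9 classes, where the classes from clusters gave 6. The cause of these differences was not tested.

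Dpp10 in D1-MSN-like nuclei was 0.73 without the replicate block, 0.20 in gated nuclei and 0.26 to 1.42 with 1 library left out, and turned to -0.14 with an equal sub-cluster mix, -0.061 with a weighted mix, -0.028 without sub-cluster 4 and -0.019 in cluster 2. The last 2 settings, and the split by clusters in which 1 of 2 parts was called in place of 0 of 4 sub-clusters, were chosen after seeing the data, as were the fits without Vip-led nuclei and within the 2 oligodendrocyte clusters. The equal mix, the weighted mix and the fit without sub-cluster 4 all leave out that sub-cluster, so they are not separate checks. The difference of the Dpp10 effect between D1- and D2-MSN-like nuclei was 0.12 in gated nuclei. Pathway calls numbered 1 and were 0 without the replicate block, with DESeq2, without TMM and without doublet removal, 2 without the filter, 4 with the gate and 0 to 2 with 1 library left out. Sex calls went from 7 to 1 without the treatment term.

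Astrocyte-like Kcnip4 ran from -0.11 (without the cocaine female library) to 1.23 with 1 library left out, and turned to -0.066 without doublet removal. Classes from clusters in place of gates turned the D1 against D2 difference of Kcnd2 to -0.16, of Dpp10 to 0.78 and of Kcna4 to -0.020. Of 203 alternatives over all results 9 turned direction, 4 of them for Dpp10 in D1-MSN-like nuclei. Of the 150 for single genes other than that one, 92 kept direction and side of the threshold, 52 lost the call, 1 gained it and 5 turned. Leaving out the library block in the D1 against D2 test changed none of its 4 calls. With 4 pools, sums such as Kcnip1 in D2-MSN-like nuclei (43 to 93 UMIs) are limited by depth.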

Other observations

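Cholinergic-like nuclei, the large acetylcholine-releasing interneurons of the striatum, numbered 17 and 27 with saline (female, male) and 27 and 8 with cocaine and were not tested. In the order used in the report, their Kcnip4 level was 4241, 2455, 3308 and 3403 CPM, Dpp6 was at 1945, 1463, 1989 and 1620 CPM and Kcnd2 at 1525, 1810, 1718 and 1756 CPM. Dpp10 stood at 840, 1281, 1547 and 381 CPM. Kcnip1 spread from 241 CPM in the saline female to 40.8 CPM in the cocaine male library, with 72.8 and 102 CPM in the cocaine female and saline male.

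In D1-MSN-like sub-cluster 6, whose 77 nuclei had a median of 1090 UMIs, Dpp10 was at 3782, 1801, 517 and 1041 CPM. It was led by Zeb2, Nfib and Sox5 and was not tested.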
